A study of Arabidopsis thaliana with 4 samples.

Results

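The ethylene response factors (ERFs) of Arabidopsis thaliana, with the related RAP2 and DREB2 factors, were followed between 2 lines of the Columbia accession (Col-0). The genes were chosen by name as 38 genes of this transcription factor family. They were listed with earlier results of these data known, so their counts and medians are descriptions and the set was not tested. Each matched 1 of the 32122 annotated gene models among the 36251 models of the deposited table. The comparison asks how far 2 lines of the same accession differ in their RNA. The libraries were 2 of Another Col-0 and 2 of SALK Col-0, all labelled wild type and made from 2-week-old seedlings grown in soil at 22 °C under long days. They were labelled biological replicates, but the labels do not tell whether trays or days were shared, so the spread behind the p-values may be partly technical. Neither line is labelled with a mutation, transgene or treatment.

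ERFs are plant transcription factors that bind DNA through a single AP2/ERF domain. In the ethylene pathway the hormone inactivates its receptors, the transcription factors EIN3 and EIL1 become stable, and these switch on genes such as ERF1B. Many ERFs recognise the GCC box of defence genes. Those with an EAR motif repress transcription through TOPLESS-type corepressors, and the DREB branch binds the DRE element of drought and cold genes. Group VII factors are degraded in the presence of oxygen and nitric oxide and switch on genes of low-oxygen metabolism.

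Most measured ERF genes had higher values in Another Col-0. The value used is FPKM, fragments a read measure corrected for library size and for transcript length, so levels can be set side by side between genes. Of the 38 genes, 35 had a value above 0 in at least 1 library, 3 were listed at 0 in every library, and 29 reached a mean of 1 FPKM over the 4 libraries and were tested. In 17 of these 29 (58.6%) both Another Col-0 libraries lay above both SALK Col-0 libraries, and in 3 (10.3%) both lay below. Among all 20634 models tested, 26.2% lay above and 20.8% below in this way, and among the 18432 annotated ones 29.3% and 23.2%. The median difference of the 29 genes, Another Col-0 minus SALK Col-0 on the log2(FPKM + 1) scale, was 0.34, against 0.02 for all models tested, with a range of -0.25 to 1.39. With a pseudocount of 5 in place of 1 the median was 0.19. Within the replicate numbers the median was 0.35 between the libraries numbered 1 and 0.36 between those numbered 2, against 0.00 and 0.03 for all models. In these whole seedlings, fewer cells of a type and less RNA per cell cannot be told apart.

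In the main fit, which held no term for the replicate number, no ERF gene passed the test, and neither did any other model. Fits with such a term did call genes, and their counts are given with the alternatives at the end. In limma's moderated test with Benjamini-Hochberg adjustment, 0 of the 29 had an adjusted p under 0.05 (background 0.0% in each direction), and the smallest adjusted p of the ERF genes was 0.199, also the smallest of all models. At an unadjusted p under 0.05 there were 12 higher ERF genes (41.4%, against 10.2% of all models) and 1 lower (3.45%, against 6.45%). ERF13, ERF12 and ERF98 reached the filter only through their values in Another Col-0. A fit of annotated models only also called 0 ERF genes, where it called 0.0543% of models higher and 0.00543% lower. Among the 26 genes with at least 1 FPKM in both line means, 14 (53.8%) lay above without overlap and 3 below, and the median was 0.27. Over all 35 genes above 0 these counts were 20 (57.1%) and 4 (11.4%), with a median of 0.34. Limits deposited beside each FPKM value, whose level is not given in the sources used here, overlapped between the lines for all 38 genes.

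**Figure D1:**
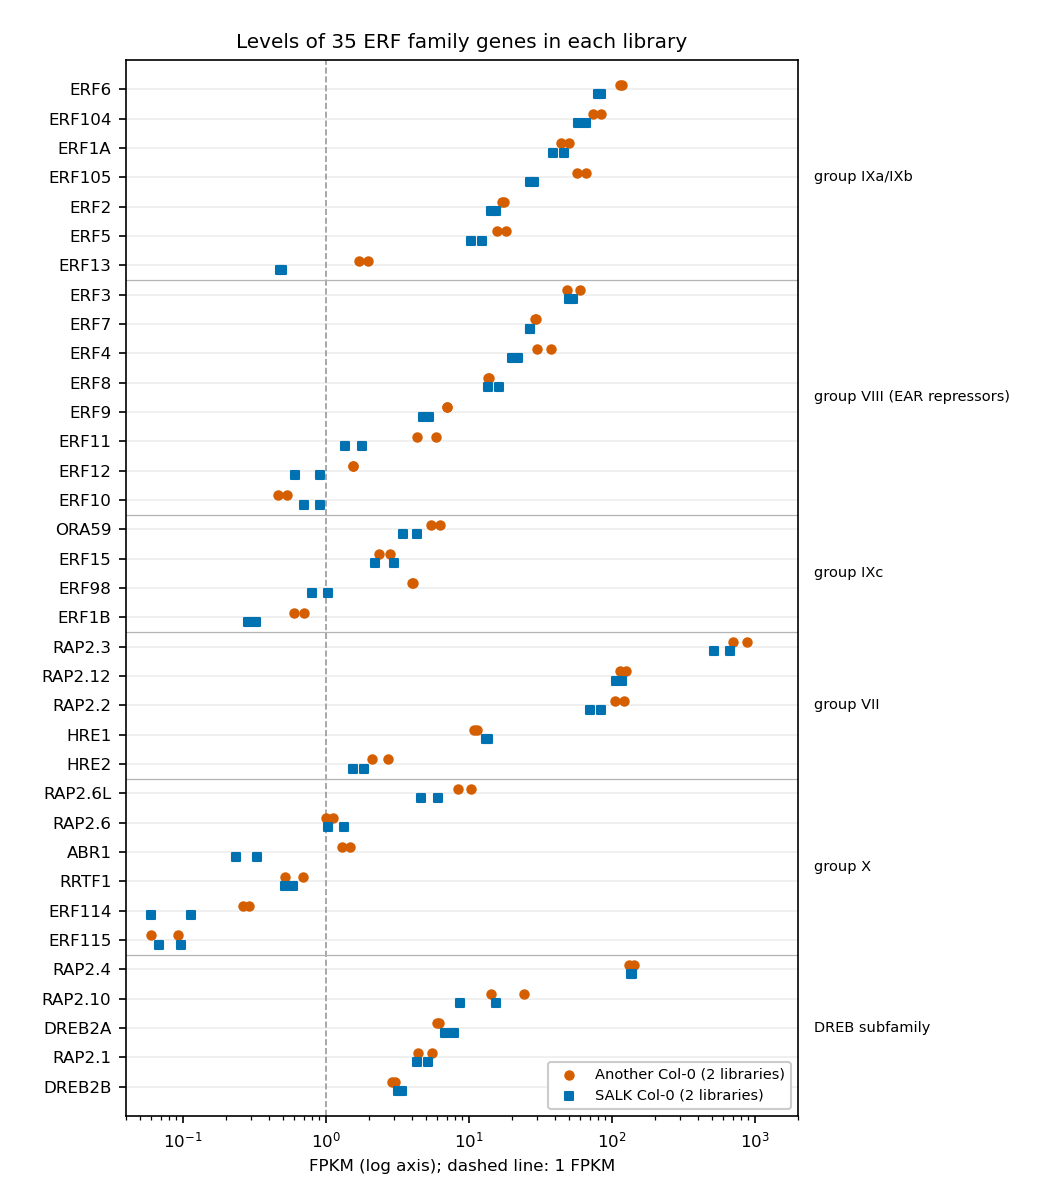
FPKM of the 35 ERF family genes with a value above 0, on a log axis, with 1 point per library (circles, Another Col-0; squares, SALK Col-0) and genes grouped by subgroup. RAP2.3 had the highest levels, and circles lay apart from and to the right of the squares in 20 genes, among them ERF105, ERF11 and ERF98.

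The 4 largest differences among the tested genes belonged to ERF98, ERF11, ERF105 and ERF13, which come from 3 subgroups. The promoters of ERF98, ERF11 and ERF13 are printed to show what lies before such genes. Each is the 250 bases before the gene start in RefSeq's annotation of TAIR10.1, written 5′ to 3′ on the gene's strand. They are chr3:8290165-8290414 (minus strand) for ERF98, chr1:9956981-9957230 (minus strand) for ERF11 and chr2:18494965-18495214 (plus strand) for ERF13. Capitals mark TTGAC (the core of the W box that WRKY factors bind, GTCAA when read on the other strand), CACGTG (the G box) and GCCGCC (the core of the GCC box).
ERF98: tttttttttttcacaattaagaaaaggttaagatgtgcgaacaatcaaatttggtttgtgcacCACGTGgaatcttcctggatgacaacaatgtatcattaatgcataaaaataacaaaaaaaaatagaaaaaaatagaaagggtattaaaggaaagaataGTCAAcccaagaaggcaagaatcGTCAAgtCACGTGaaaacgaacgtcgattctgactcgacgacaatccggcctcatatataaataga
ERF11: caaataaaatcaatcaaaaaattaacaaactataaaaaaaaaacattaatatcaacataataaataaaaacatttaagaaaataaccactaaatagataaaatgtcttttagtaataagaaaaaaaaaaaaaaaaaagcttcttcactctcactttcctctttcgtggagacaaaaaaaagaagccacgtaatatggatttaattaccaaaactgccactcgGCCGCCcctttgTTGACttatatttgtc
ERF13: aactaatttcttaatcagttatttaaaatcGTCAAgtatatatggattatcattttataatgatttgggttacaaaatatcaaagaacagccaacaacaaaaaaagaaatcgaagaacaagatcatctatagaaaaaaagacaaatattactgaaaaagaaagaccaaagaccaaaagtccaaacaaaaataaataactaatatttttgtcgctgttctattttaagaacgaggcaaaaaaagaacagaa
All 3 stretches held TTGAC on 1 of the strands, ERF98 at 2 places, and ERF98 also held 2 G boxes. TTGAC is common, with a match on either strand in 44.9% of all 27443 promoters of this length, and 15 of the 38 ERF promoters (39.5%) had one. CACGTG was in 11 of the 38 (28.9%), against 6.49% of all promoters. Those 11 were ERF1A, ERF2, ERF4, ERF12, ORA59, ERF15, ESE1, ERF98, RRTF1, RAP2.6 and DREB2B. Of the 14 genes given per library below, 4 (ERF4, ERF12, ORA59 and ERF98) held it, a share near that of all 38. The full GCC box AGCCGCC was in none of the 38 windows and in 0.587% of all promoters. Its shorter core GCCGCC, which was searched after the data had been seen and also lies inside AGCCGCC, was in 4 (10.5%, against 1.87%): ERF11, ORA59, ERF15 and ABR1. The core of the DRE, CCGAC, was in 6 windows (15.8%) and in 3285 of all 27443, and CGCGTT, bound by CAMTA factors, was in 1 (2.63%, against 2.59%), that of ERF10. These matches describe letters in a window and are no measure of binding.

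The genes given in every library by the naming rule were those with at least 1 FPKM on average, no overlap between the lines and a difference of at least 0.3 within both replicate numbers. This held for 14 higher ERF genes (48.3% of the 29 tested, against 8.53% of all models and 9.5% of annotated ones) and 0 lower ones (against 5.83% and 6.5%). Without ERF13, ERF12 and ERF98, which reached the filter only through Another Col-0, it held for 11 of 26 (42.3%). Their values follow by subgroup, with the other genes of each subgroup beside them. On the log2(FPKM + 1) scale, differences of genes near 1 FPKM are smaller than their fold.

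Groups IXa and IXb hold activators that respond within minutes to wounding, pathogen elicitors and osmotic stress. All 7 of their genes were tested, and all 7 had positive differences in both replicate numbers. Of these, 6 were higher without overlap (against 26.2% of all models), and the median difference was 0.49. ERF105 (AT5G51190; chromosome 5, 20800584-20801416, minus strand), a factor of cold and freezing tolerance, had 56.8 and 65.5 FPKM in Another Col-0, against 26.9 and 28.3 FPKM in SALK Col-0. The means were 61.1 ± 6.15 and 27.6 ± 0.970 FPKM (SD, n = 2 each), and the difference was 1.11 ± 0.099 on the log2(FPKM + 1) scale (SE; limma, adjusted p = 0.199). Both Another Col-0 libraries were at about double the level of either SALK Col-0 library.

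ERF13 (AT2G44840; chromosome 2, 18495341-18496272, plus strand), which restrains lateral root emergence, had 1.98 and 1.71 FPKM in Another Col-0, against 0.490 and 0.479 FPKM in SALK Col-0. Its means differed 3.81-fold, with a difference of 0.94 ± 0.167 (limma, adjusted p = 0.214). ERF13 and ERF105 passed the test in a fit of only the annotated models that share no locus bundle with another gene, an alternative chosen after seeing the data, with adjusted p of 0.0382 and 0.0388. In that fit, 1.17% of models were called higher and 0.482% lower, and ERF13 entered it only through its values in Another Col-0.

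ERF5, ERF6 and ERF104 are linked to mitogen-activated protein kinases, which phosphorylate ERF6 and ERF104. ERF6 (AT4G17490; chromosome 4, 9752824-9753867, minus strand), which also curbs leaf growth under osmotic stress, had 118 and 115 FPKM in Another Col-0, against 80.4 and 84.2 FPKM in SALK Col-0. Its values lay apart with little spread within a line, and the difference was 0.49 ± 0.057 (limma, adjusted p = 0.199). ERF6 lies inside a single annotated model of 285990 nt that spans AT4G17380 and AT4G17870, and in a bundle of 95 models, so its share of the reads is uncertain. ERF5 (AT5G47230; chromosome 5, 19179939-19181129, plus strand), a chitin- and wound-responsive activator, had 18.2 and 15.8 FPKM in Another Col-0, against 12.4 and 10.3 FPKM in SALK Col-0. The difference was 0.54 ± 0.134 (limma, adjusted p = 0.250). ERF104 (AT5G61600; chromosome 5, 24766386-24767430, minus strand), a substrate of the kinase MPK6 in flagellin signalling, had 84.0 and 74.1 FPKM in Another Col-0, against 65.8 and 58.3 FPKM in SALK Col-0. For ERF104 the gap between the lines, a difference of 0.34 ± 0.111 (limma, adjusted p = 0.308), was smaller than for the other 2. An unannotated model of 364 nt, listed under the same identifier, overlaps its 5′ part by 96 nt on the other strand.

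The remaining activators of these groups, ERF1A and ERF2, had smaller differences. ERF2 had 17.0 and 17.7 FPKM in Another Col-0, against 14.3 and 15.4 FPKM in SALK Col-0, which did not overlap (0.21 ± 0.066; limma, adjusted p = 0.299). ERF1A had 44.1 and 50.5 FPKM in Another Col-0, against 38.5 and 46.3 FPKM in SALK Col-0, which overlapped (0.16 ± 0.140; limma, adjusted p = 0.683). ERF1A lies inside the same long model as ERF6.

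Group VIII holds repressors with an EAR motif. Of its 8 genes 7 were tested, and 6 of them had positive differences (with ERF3 at -0.0055 under quantile normalization). Of the 7 tested, 5 were higher without overlap (against 26.2% of all models), and the median was 0.41. ERF11 (AT1G28370; chromosome 1, 9955969-9956940, minus strand), a repressor of ethylene biosynthesis genes, had 5.90 and 4.31 FPKM in Another Col-0, against 1.78 and 1.37 FPKM in SALK Col-0. The means were 5.10 ± 1.12 and 1.58 ± 0.295 FPKM (SD, n = 2 each), a ratio of 3.24, and the difference was 1.24 ± 0.200 (limma, adjusted p = 0.206). ERF12 (AT1G28360; chromosome 1, 9951848-9952740, plus strand), its neighbour and a repressor of a seed dormancy gene, had 1.55 FPKM in both Another Col-0 libraries, against 0.612 and 0.903 FPKM in SALK Col-0. These 2 genes lie 3228 nt apart with no annotated model between them, and the ERF12 difference was 0.54 ± 0.182 (limma, adjusted p = 0.315).

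ERF4 (AT3G15210; chromosome 3, 5121422-5122562, plus strand), a repressor of jasmonate-responsive defence genes that also acts in leaf senescence, had 37.3 and 29.7 FPKM in Another Col-0, against 22.2 and 20.1 FPKM in SALK Col-0. It was the most abundant of the group VIII genes with a clear gap between the lines, at a difference of 0.63 ± 0.149 (limma, adjusted p = 0.241). ERF9 (AT5G44210; chromosome 5, 17806472-17807534, plus strand), a repressor of defence against necrotrophic fungi, had 7.01 and 6.99 FPKM in Another Col-0, against 4.78 and 5.24 FPKM in SALK Col-0 (0.41 ± 0.073; limma, adjusted p = 0.213). ERF7, which takes part in abscisic acid responses, was higher without overlap but by little, at 29.4 and 28.8 FPKM in Another Col-0, against 26.7 and 26.8 FPKM in SALK Col-0. ERF3 and ERF8 overlapped between the lines, with differences of 0.06 ± 0.136 and -0.11 ± 0.107 whose signs differed between the replicate numbers. ERF10 stayed under the filter and ran the other way, with 0.466 and 0.533 FPKM in Another Col-0, against 0.702 and 0.913 FPKM in SALK Col-0.

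Group IXc holds the factors at which ethylene and jasmonate signals meet. ERF98 (AT3G23230; chromosome 3, 8289647-8290066, minus strand), an activator of ascorbate synthesis genes, had the largest difference of all ERF genes tested. It had 4.06 and 4.01 FPKM in Another Col-0, against 1.04 and 0.801 FPKM in SALK Col-0. The means were 4.04 ± 0.0407 and 0.919 ± 0.167 FPKM (SD, n = 2 each), a ratio of 4.39, and the difference was 1.39 ± 0.128 (limma, adjusted p = 0.199). An unannotated model of 158 nt, listed on the other strand under ERF98's own identifier, overlaps 93 nt of the ERF98 model. This unannotated model lies wholly downstream of the ERF98 gene start in RefSeq. It had 0 and 64.6 FPKM in Another Col-0, against 0 and 18.4 FPKM in SALK Col-0. It was listed at 0 in both libraries numbered 1, where ERF98 was at 4.06 FPKM in Another Col-0 and 1.04 FPKM in SALK Col-0. Among the libraries numbered 2 it was higher in Another Col-0, as ERF98 was. The library kit does not mark strand by its standard protocol, so reads of ERF98 and of this model cannot be told apart.

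ORA59 (AT1G06160; chromosome 1, 1883004-1883934, plus strand), the activator of the defensin PDF1.2 under jasmonate and ethylene, had 6.25 and 5.42 FPKM in Another Col-0, against 4.36 and 3.47 FPKM in SALK Col-0 (0.48 ± 0.144; limma, adjusted p = 0.286). ERF1B, a direct target of EIN3, stayed under the filter with 0.596 and 0.705 FPKM in Another Col-0, against 0.325 and 0.287 FPKM in SALK Col-0. ERF15, which takes part in immunity and abscisic acid responses, overlapped at 2.79 and 2.34 FPKM in Another Col-0, against 3.0 and 2.19 FPKM in SALK Col-0 (-0.01 ± 0.178). ERF14, ERF96 and ESE1 were listed at 0 in every library. ESE1, ERF98 and ERF1B stand in a row on chromosome 3 with gaps of 1258 and 5577 nt and no annotated model between them, and only ERF98 reached 1 FPKM.

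**Figure D2:**
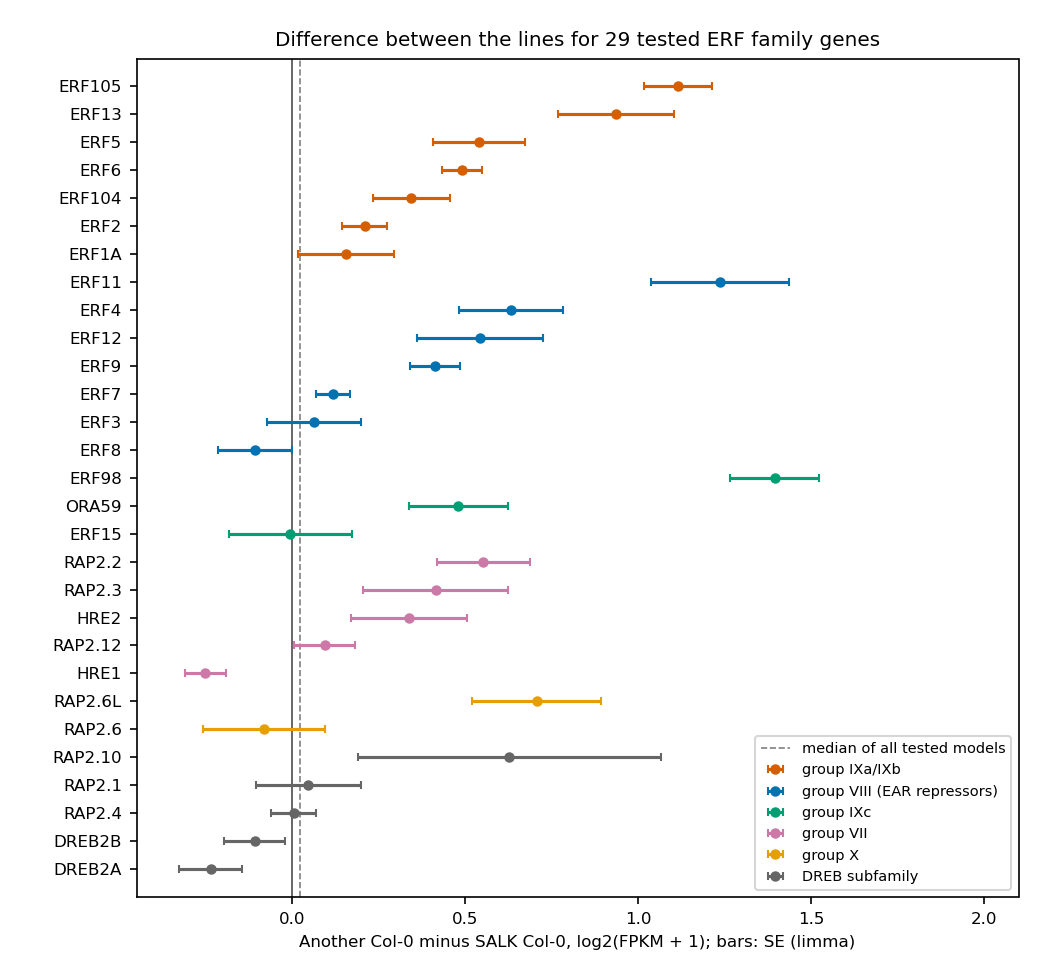
Difference between the lines, Another Col-0 minus SALK Col-0 on the log2(FPKM + 1) scale, for the 29 tested genes (points; bars are limma's SE). The dashed line is the median of all models tested, at 0.02. All 7 genes of groups IXa and IXb lie to its right, 6 of 7 in group VIII do (ERF8 is at -0.11), and HRE1 lies farthest to its left at -0.25.

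Of the 5 genes of group VII, the oxygen-sensing factors, 3 were higher and 1 lower without overlap (against 26.2% and 20.8% of all models). RAP2.3 (AT3G16770; chromosome 3, 5705662-5707023, plus strand), which also takes part in defence and stress tolerance, was the most abundant ERF gene. It had 706 and 875 FPKM in Another Col-0, against 514 and 674 FPKM in SALK Col-0. The nearest libraries of the lines were closer to each other than the replicates of a line were, and the difference was 0.42 ± 0.210 (limma, adjusted p = 0.449). RAP2.2 (AT3G14230; chromosome 3, 4737146-4739141, minus strand), an activator of hypoxia genes, had 121 and 105 FPKM in Another Col-0, against 83.2 and 70.4 FPKM in SALK Col-0 (0.55 ± 0.134; limma, adjusted p = 0.247). RAP2.12, the third of the constitutively expressed members, overlapped with 125 and 114 FPKM in Another Col-0, against 117 and 107 FPKM in SALK Col-0. Its model runs over AT1G53890, AT1G53900 and AT1G53903, so it may hold reads of other genes, although those 3 were listed at 0.158 FPKM or less in every library. It also overlaps the antisense gene AT1G53887 by 279 nt, which had 3.26 and 10.8 FPKM in Another Col-0, against 2.54 and 6.81 FPKM in SALK Col-0.

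The hypoxia-induced members of group VII had differences of opposite sign. HRE1 had 10.8 and 11.4 FPKM in Another Col-0, against 13.1 and 13.7 FPKM in SALK Col-0, the lowest difference of all ERF genes tested (-0.25 ± 0.060; limma, adjusted p = 0.245). HRE2 had 2.11 and 2.74 FPKM in Another Col-0, against 1.54 and 1.86 FPKM in SALK Col-0 (0.34 ± 0.168; limma, adjusted p = 0.440). Neither overlapped between the lines.

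Group X holds wound-, redox- and regeneration-linked factors, most of them barely expressed. RAP2.6L (AT5G13330; chromosome 5, 4272060-4274660, plus strand), which takes part in shoot regeneration and in tissue reunion after cutting, had 8.33 and 10.3 FPKM in Another Col-0, against 4.59 and 6.07 FPKM in SALK Col-0 (0.71 ± 0.186; limma, adjusted p = 0.263). ABR1, a repressor of abscisic acid responses, was under the filter with 1.47 and 1.3 FPKM in Another Col-0, against 0.235 and 0.328 FPKM in SALK Col-0. Its ratio of 4.92 was the highest of the 35 genes, at levels where FPKM is imprecise, and its model overlaps the antisense gene AT5G64760 by 109 nt. ERF114, which promotes axillary bud growth, also lay under the filter, with 0.262 and 0.292 FPKM in Another Col-0, against 0.0601 and 0.114 FPKM in SALK Col-0. RAP2.6 (-0.08 ± 0.177), RRTF1, a redox-responsive factor, and ERF115, a factor of root stem cell division, overlapped between the lines, and RRTF1, which overlaps an antisense gene by 301 nt, and ERF115 stayed at 0.692 FPKM or less in every library.

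The 5 genes of the DREB branch had a median difference of 0.00, with 0 higher and 2 lower without overlap (against 26.2% and 20.8% of all models). DREB2A, the activator of drought and heat genes, had 6.14 and 6.02 FPKM in Another Col-0, against 7.86 and 6.84 FPKM in SALK Col-0 (-0.24 ± 0.091; limma, adjusted p = 0.351). Its close relative DREB2B was lower by less, at 3.03 and 2.91 FPKM in Another Col-0, against 3.39 and 3.17 FPKM in SALK Col-0. RAP2.4, a light- and drought-responsive factor, had 142 and 133 FPKM in Another Col-0, against 136 and 138 FPKM in SALK Col-0, and RAP2.1, a repressor of drought and cold genes, also overlapped (0.05 ± 0.153). RAP2.10 had 14.2 and 24.1 FPKM in Another Col-0, against 8.61 and 15.6 FPKM in SALK Col-0. Its libraries numbered 2 were above those numbered 1 by 0.73 in Another Col-0 and 0.79 in SALK Col-0, more than the difference between the lines (0.63 ± 0.439; limma, adjusted p = 0.582). Within the replicate numbers, RAP2.10 differed between the lines by 0.66 (libraries numbered 1) and 0.60 (libraries numbered 2). DREB2A and DREB2B overlap antisense genes by 90 and 99 nt. Whether the DREB genes differ from the other subgroups was not tested.

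**Figure D3:**
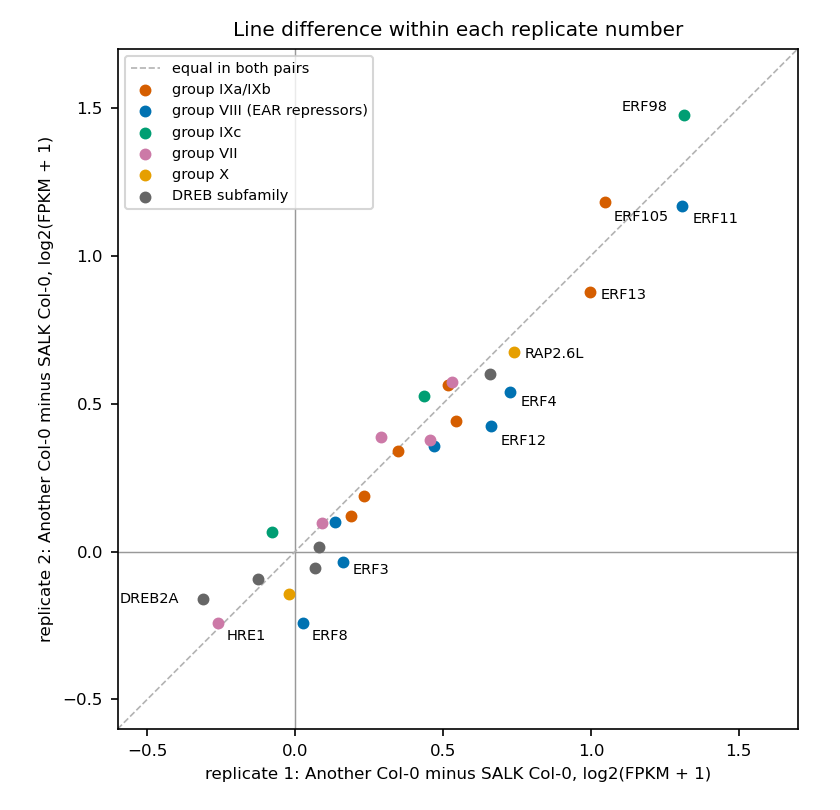
Difference between the lines among libraries numbered 1 (x axis) and among libraries numbered 2 (y axis), each Another Col-0 minus SALK Col-0 on the log2(FPKM + 1) scale, for the 29 tested genes. Points lie close to the dashed line of equal values: 21 genes were positive in both, 4 negative in both and 4 of opposite sign.

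The ERF differences were much alike within the replicate numbers. In 21 of the 29 genes Another Col-0 was above SALK Col-0 in both, and in 4 it was below in both. The library numbered 2 differed from that numbered 1 in the same direction in both lines for 24 of the 29 genes. This was not particular to the ERF genes. Over 18432 annotated models, the deviations of the libraries numbered 1 from their line means had a correlation of 0.789 between the lines. The shares of all models for these sign counts are not given here. Neighbouring genes with values above 0 had differences of the same sign, positive, but of unlike size. ERF12 and ERF11 had 0.54 and 1.24, and ERF98 and ERF1B, the latter under the filter, had 1.39 and 0.34. ERF2 and ERF5, 7115 nt apart with 2 annotated models between them, had 0.21 and 0.54. ERF6 and ERF1A, 5457 nt apart, had 0.49 and 0.16, but both lie inside the same long model, so their shares of the reads are uncertain.

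Among genes that carry the ethylene signal to the ERFs, EBF2, ERS1 and ETR2 had the clearest gaps between the lines. Of 14 receptor and signalling genes, 0 passed the adjusted test (4 higher and 0 lower at an unadjusted p under 0.05, against 10.2% and 6.45% of all models), 5 were higher and 1 lower without overlap (against 26.2% and 20.8%), and the median was 0.08. EBF2, an F-box protein that targets EIN3 for degradation and is itself induced by EIN3, had 103 and 104 FPKM in Another Col-0, against 67.6 and 65.2 FPKM in SALK Col-0 (0.63 ± 0.053; limma, adjusted p = 0.199). The receptor gene ERS1 had 72.7 and 75.5 FPKM in Another Col-0, against 52.9 and 51.1 FPKM in SALK Col-0 (0.50 ± 0.056; limma, adjusted p = 0.199). The receptor gene ETR2 had 13.1 and 13.2 FPKM in Another Col-0, against 9.40 and 8.87 FPKM in SALK Col-0 (0.48 ± 0.057; limma, adjusted p = 0.199). EBF1, the partner of EBF2, had a difference of 0.28 ± 0.079. EIN3 and EIL1, named after their values were seen, had differences of -0.02 ± 0.061 and 0.01 ± 0.060, and both are controlled mainly at the protein level.

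Defence genes that carry a GCC box had values on both sides. Of 7 listed, 4 were tested, with 1 higher and 3 lower without overlap (against 26.2% and 20.8% of all models). In limma 0 passed the adjusted test, with 1 higher and 3 lower at an unadjusted p under 0.05 (against 10.2% and 6.45%). PDF1.2, a defensin and a target of ORA59, had 0.565 and 0.432 FPKM in Another Col-0, against 2.26 and 1.95 FPKM in SALK Col-0 (-1.05 ± 0.170; limma, adjusted p = 0.206), and it reached the filter only through SALK Col-0. Its relative PDF1.2b had 3.85 and 2.70 FPKM in Another Col-0, against 15.3 and 8.99 FPKM in SALK Col-0 (-1.59 ± 0.334; limma, adjusted p = 0.225). The PDF1.2 genes are near-identical copies, so the split of reads among them is uncertain. The basic chitinase gene CHI-B was lower (-0.20 ± 0.060). HEL, a hevein-like defence protein, was higher, with 122 and 151 FPKM in Another Col-0, against 63.5 and 81.1 FPKM in SALK Col-0 (0.91 ± 0.194; limma, adjusted p = 0.226).

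The partners of the other subgroups also passed no adjusted test. At an unadjusted p under 0.05 limma gave 1 higher kinase gene, 1 higher and 1 lower hypoxia gene, 0 genes of the DREB2A pathway, 1 higher and 1 lower corepressor gene and 2 higher cytokinin response factors, against 10.2% higher and 6.45% lower among all models. Of the kinase genes that act on ERFs, MPK3 (-0.19 ± 0.131), MPK6 (0.20 ± 0.198) and MPK4 (0.18 ± 0.051) differed by little. Among 12 genes of hypoxia and of group VII degradation, 5 were higher and 4 lower without overlap (against 26.2% and 20.8% of all models), with a median of 0.07. The sucrose synthase gene SUS4 was lower, at 10.6 and 10.1 FPKM in Another Col-0, against 15.9 and 14.6 FPKM in SALK Col-0. LBD41 (0.26 ± 0.072), the cysteine oxidase gene PCO1 (0.29 ± 0.149) and HRA1 (0.23 ± 0.136), which restrains RAP2.12, had positive differences. ADH1 (-0.20 ± 0.121) and PDC1 (-0.11 ± 0.073), named after their values were seen, were lower without overlap. In the 5-gene DREB2A pathway, 1 was higher and 2 lower without overlap (against 26.2% and 20.8% of all models). HSFA3, a heat shock factor under DREB2A, had 0.56 ± 0.191, and the dehydration genes RD29B and RD29A had -0.40 ± 0.144 and -0.17 ± 0.086. Of 6 corepressor genes that EAR factors recruit, 1 was higher and 5 lower without overlap (against 26.2% and 20.8% of all models). The lower ones included TPL at -0.02 ± 0.048 and TPR2 at -0.06 ± 0.053. TPR3, a TOPLESS relative, had 5.79 and 5.50 FPKM in Another Col-0, against 8.45 and 8.06 FPKM in SALK Col-0. TPR4 had -0.26 ± 0.106, TPR1 -0.09 ± 0.047, and SAP18, a histone deacetylase partner, 0.25 ± 0.052. Cytokinin response factors, relatives of the ERFs outside the list, were higher in 4 of 6 and lower in 1 without overlap (against 26.2% and 20.8%). CRF6 was at 0.61 ± 0.158, CRF5 at 0.35 ± 0.104, CRF1 at 0.43 ± 0.164 and CRF2 at -0.22 ± 0.080.

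**Figure D4:**
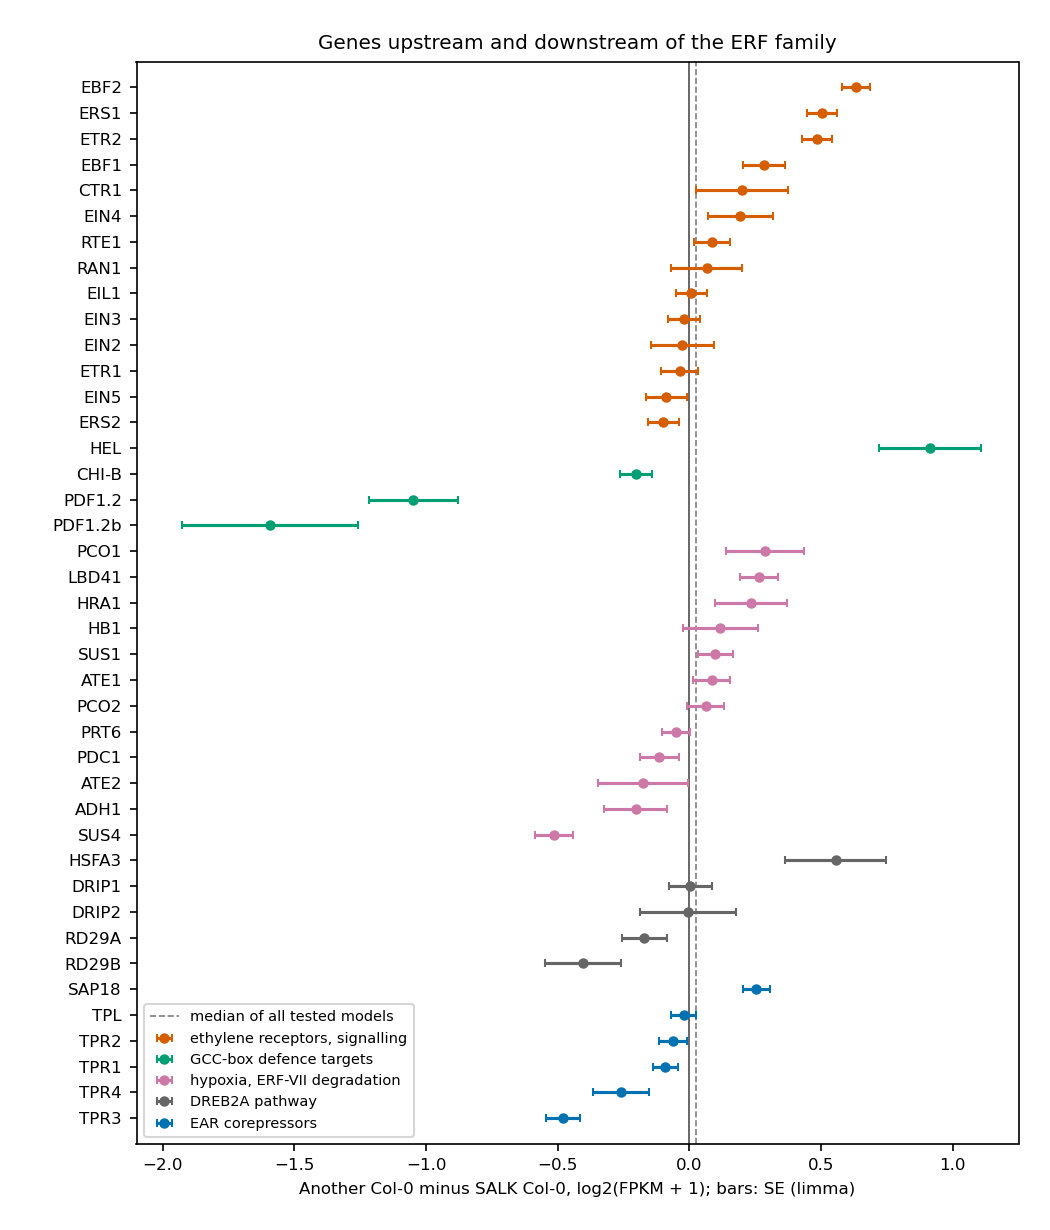
Difference between the lines, Another Col-0 minus SALK Col-0 on the log2(FPKM + 1) scale, for tested genes of the ethylene pathway, GCC-box defence genes, hypoxia genes, the DREB2A pathway and EAR corepressors (points; bars are limma's SE). EBF2, ERS1 and ETR2 lie to the right at 0.48 to 0.63, and PDF1.2 and PDF1.2b far to the left at -1.05 and -1.59.

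Other measures also differed between the lines, and their part in the ERF result was not tested. The rapid stress and morning clock genes were listed with earlier results of these data known, so their counts and medians are descriptions and the sets were not tested. Neither list held a gene past the adjusted test. Of 13 further genes of the rapid stress response, 12 were higher without overlap, against 26.2% of all models, with a median of 0.64. At an unadjusted p under 0.05 in limma 11 were higher, against 10.2% of all models. They were led by CAF1A (1.69 ± 0.094), WRKY18 (1.19 ± 0.056), ZAT10 (1.44 ± 0.083) and BAP1 (1.06 ± 0.088). WRKY33, named after its value was seen, was lower (-0.43 ± 0.080). All 7 tested of 8 morning clock genes were lower without overlap, against 20.8% of all models, with a median of -0.58. At an unadjusted p under 0.05 in limma 7 were lower, against 6.45% of all models. Among them were RVE4 (-0.43 ± 0.053), LNK1 (-0.74 ± 0.10), PRR7 (-0.38 ± 0.053) and PRR9 (-0.84 ± 0.127). The clock gene LHY stayed under the filter and was higher without overlap. It had 0.398 and 0.377 FPKM in Another Col-0, against 0.326 and 0.280 FPKM in SALK Col-0. Harvest times are not given in the labels. Summed over 8 flower markers, Another Col-0 had 47.6 and 40.5 FPKM and SALK Col-0 22.4 and 16.9 FPKM, nearly all from PI and SEP3, with AP3 at 0.346 FPKM or less everywhere. Leaf markers summed to 25007 and 25257 FPKM in Another Col-0, against 23164 and 25209 FPKM in SALK Col-0, and root markers to 107 and 102 FPKM in Another Col-0, against 109 FPKM in both SALK Col-0 libraries. The root sum holds genes of both directions. Among tested root markers, 3 were higher (TIP2;3, SCR and PIP2;4) and 2 lower (PER64 and PHO1) without overlap, against 26.2% and 20.8% of all models. RHD6, under the filter, was also lower. Seed markers summed to 2.90 and 2.79 FPKM in Another Col-0, against 8.12 and 8.11 FPKM in SALK Col-0, mostly from CRA1, while CRU2, CRU3 and SESA1 were higher in Another Col-0 at 0.210 FPKM or less. Chloroplast-encoded genes summed to 3645 and 8843 FPKM in Another Col-0, against 2055 and 4503 FPKM in SALK Col-0, and so were higher in Another Col-0 within each replicate number and higher in the libraries numbered 2 within each line. Between 22495 and 22822 annotated models were above 0 in a library. Read totals are not in the table, so depth is unknown and no counting interval is given.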

How the data were processed

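RNA from whole seedlings was sequenced as single 101-nt reads from TruSeq RNA V2 libraries, per the labels' protocols. The authors deposited FPKM values for each gene model and library with a lower and an upper limit, the lower limits being other values in a column of their own, per the file headers. Per the submitters' processing notes, TopHat, Cufflinks, Cuffdiff and TAIR10 were used; their versions and roles are not given in the sources used here.

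The 38 genes and the pathway lists were chosen with earlier results of these data known. A failed estimate removed 19 models, and 301 displaced rows of organelle genes were read from the field with the identifier. The 20634 models whose 4 libraries averaged 1 FPKM or more were tested on log2(FPKM + 1) with limma 3.58.1 (R 4.3.3), with a mean-variance trend and the line as the term, 2 residual degrees of freedom, two-sided, Benjamini-Hochberg adjustment over all models and calls at an adjusted p under 0.05. SALK Col-0 was subtracted in every difference, and no replicate block was used. The test was run on simulated data whose libraries were drawn independently, so this check does not cover effects that same-numbered libraries share.

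ERF genes with a mean of at least 1 FPKM, no overlap between the lines and a difference of at least 0.3 within both replicate numbers were named in full, the others by their range and role, and up to 4 genes per pathway list by smallest p. Promoters were read from RefSeq's TAIR10.1 annotation, whose genes overlapped all 25539 single-gene models of the deposited table on the same chromosome. All 38 genes matched. The promoter sequence of 1 of the 4 genes with the largest differences is not reported here. Protein sequences were not analysed here. Alternatives, 15 in all, changed the scaling, the pseudocount, the low-value filter, the set of models, the trend or the replicate block, or left out a library. Figures were drawn with matplotlib 3.10.9.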

Additional observations from a re-analysis of the deposited data

Results flagged for a closer look

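Signals were also seen in unannotated models listed on the strand opposite to ERF genes, under the identifiers of those same genes. Those named here lie downstream of the gene starts in RefSeq. The library kit does not mark strand by its standard protocol, so reads of these models and of the ERF genes cannot be told apart. The model over ERF98 had 0 and 64.6 FPKM in Another Col-0, against 0 and 18.4 FPKM in SALK Col-0. The model of 219 nt over RAP2.4 had 0 and 28.5 FPKM in Another Col-0, against 0 and 21.4 FPKM in SALK Col-0. In both lines these 2 signals were in the libraries numbered 2. Another such model, over ERF104, had a value in every library, at 9.31 and 15.0 FPKM in Another Col-0, against 9.88 and 19.8 FPKM in SALK Col-0.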

How the results depend on the processing

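Every alternative without a replicate block called 0 ERF genes higher and 0 lower, except the fit of annotated models alone in their bundle, chosen after seeing the data, which called 2 of the 21 tested higher (ERF105, and ERF13, which reached the filter only through Another Col-0) and 0 lower. That fit called 5 pathway genes higher, all 5 from the rapid stress list, and 1 lower, from the morning clock list. With a replicate block, 14 ERF genes were called higher (background 14.3%) and 1 lower (8.11%), and with the block over annotated models only 18 higher (26.6%) and 2 lower (18.1%). Of the 70 pathway genes tested, 22 were called higher with the block, 12 of them from the rapid stress list. The block called 12 lower, 6 of them from the morning clock list. Over annotated models, 29 pathway genes were called higher and 18 lower with the block. The labels do not say what a replicate number marks, so whether same-numbered libraries share a tray, a day or a batch is not known. The deviations of the libraries numbered 1 from their line means had a correlation of 0.789 over 18432 annotated models.

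The median difference of the ERF genes, 0.34, was 0.42 with a pseudocount of 0.1, 0.19 with a pseudocount of 5, 0.34 over 35 genes with no filter, 0.26 with quantile normalization, 0.30 with upper quartile scaling and 0.42 for annotated models alone in their bundle. It lay between 0.24 (without SALK Col-0 replicate 1) and 0.39 (without Another Col-0 replicate 1) when a library was left out. The cause was not tested. Signs reversed with quantile normalization for ERF3 (-0.0055), ERF15 (0.0069), RAP2.12 (-0.0334) and RAP2.4 (-0.149), and with upper quartile scaling for RAP2.4 (-0.0474). With a library left out, the range crossed 0 for ERF3 (-0.0855 to 0.211), RAP2.4 (-0.0455 to 0.0555), RAP2.1 (-0.0890 to 0.183), ERF15 (-0.169 to 0.158), ERF8 (-0.224 to 0.0085) and RAP2.6 (-0.184 to 0.0206). Signs of the other tested ERF genes held in every alternative in which they were fitted. A planned description of protein sequences was not run.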
